A study of Homo sapiens with 18 samples.

Results

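The comparison set HEK293T cells that had received methionaseNLS together with the VPS34 inhibitor Vps34-IN1 against HEK293T cells that had received the empty pLEX vector and DMSO, both at 24 h after transfection. It took 6 of the 18 libraries of the series, 3 per group, chosen from their labels alone. HEK293T, derived from human embryonic kidney, takes up plasmids readily, and methionaseNLS is a methionine-degrading enzyme with a nuclear localisation signal. The 3 libraries with both treatments came from cells exposed to 5 µM Vps34-IN1 for 12 h. The other groups were the vector and methionaseNLS in DMSO at 12 h, methionaseNLS in DMSO at 24 h and the vector with Vps34-IN1. That last group, at 24 h, was also exposed to 5 µM Vps34-IN1 for 12 h. The last 2 groups named are used here to set each treatment alone beside the combination. Every library was poly-A RNA of the same line under 1 batch label. No group carried an inactive methionase, so the activity of the enzyme and the expression of a foreign nuclear protein cannot be told apart. The labels do not state how long the cells were in DMSO, nor that replicates were separate cultures, so the p-values reflect the scatter of these libraries, which may be technical in origin.

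Methionine is the methyl group source of the cell. It is turned into S-adenosylmethionine, which methylates histones, DNA and RNA, and what is left is recycled, passed to cysteine and glutathione, or used for polyamines. A shortage of amino acids is sensed through eIF2 alpha phosphorylation and ATF4. VPS34, encoded by PIK3C3, makes phosphatidylinositol 3-phosphate on endosomes and on forming autophagosomes, and so serves endosome traffic and the lysosomal breakdown that can return amino acids to the cell.

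Total reads on genes lay between 20442260 and 20825232 in the vector libraries and between 18278586 and 19025439 with both treatments, and 24894 to 25456 and 25630 to 26380 genes had a read. NEFL, NEFM and VIM, which HEK293 cells are known to express, were read in all 6 libraries, while LHX1 lay at 10.7 normalised reads or fewer. The summed level of the 7 HEK293 genes was 20763 to 22319 normalised reads with the vector and 28175 to 31721 with both treatments. The listed markers of other cell types summed to 507 to 626 and 509 to 627, nearly all of it COL1A1, and CDH5, COL1A2 and DCN were at 0 in all 6. The methionase transcript was not analysed here. In bulk RNA, fewer cells with a transcript and less of it per cell cannot be told apart.

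Nearly every process examined held genes that differed. With both treatments, 8544 of 17755 tested genes (48.1%) passed limma with an adjusted p (Benjamini-Hochberg) below 0.05 and are named called, 3962 higher (22.3%) and 4582 lower (25.8%). The median difference was 0.00 on the log2 scale and the quartiles were -0.21 and 0.19, so most calls were small. A log2 difference of at least 1 was reached by 249 higher genes (1.4%) and 119 lower genes (0.67%). Counts of called members in the gene lists below are to be read beside these shares of all tested genes. The 3 libraries of one group lay wholly above the 3 of the other for 4416 genes (24.9%) and wholly below for 4899 (27.6%). The balance of directions depended on the scaling: 46.4% of the called genes were higher as deposited, 61.8% after library medians were made equal and 31.8% in voom on the recovered reads, where the median of all genes moved from 0.00 to -0.10. Differences below are on the deposited variance-stabilised log2 scale with their standard errors, a scale that shrinks changes where reads are few. Levels are reads divided by the library's size factor, called normalised reads, and they are not divided by gene length.

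**Figure D1:**
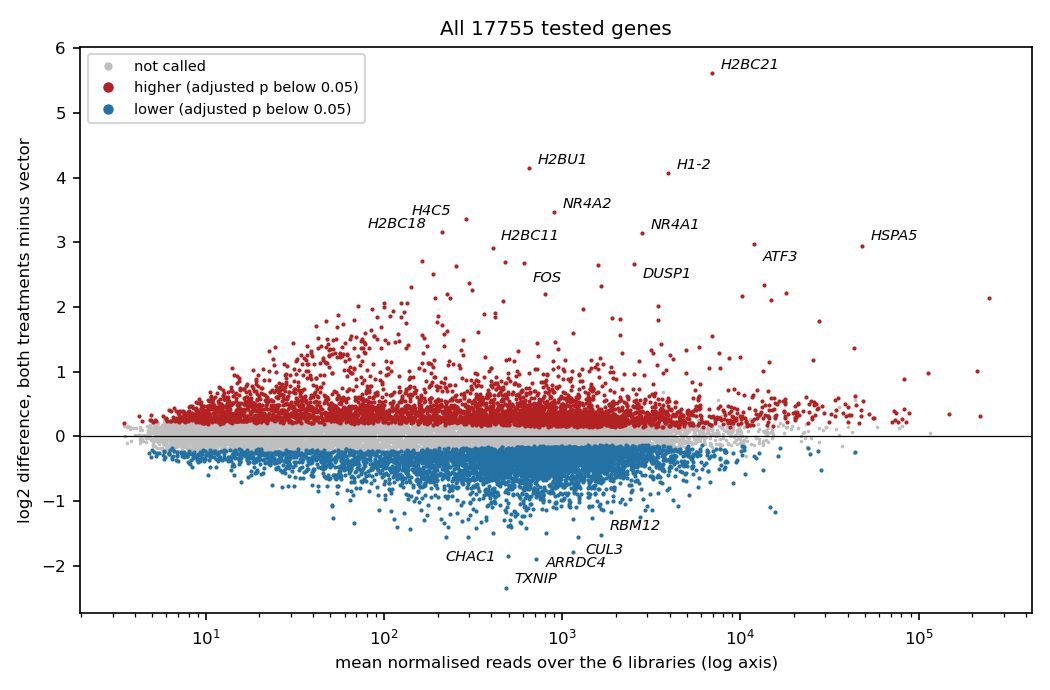
Each point is 1 of 17755 tested genes, placed by its mean normalised reads over the 6 libraries (log axis) and by its log2 difference, both treatments minus vector. Red points are called higher and blue points lower; H2BC21 stands alone at 5.62, and the lowest gene, TXNIP, lies at -2.34.

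The largest increases were those of histone genes. Replication-dependent histone genes supply the core and linker histones for DNA replication, and their mRNAs normally end in a stem-loop and not in a poly-A tail. H2BC21, an H2B gene, held 219, 194 and 184 normalised reads in the 3 vector libraries and 13948, 15394 and 11826 with both treatments. No library of one group came near the other, and the log2 difference was 5.62 ± 0.16 (adjusted p = 1.35e-17). H1-2, a linker histone gene, went from 418, 380.3 and 314 to 6544, 7686 and 8322 normalised reads, a difference of 4.07 ± 0.12. H2BC4, another H2B gene, was low, with 26.4, 27.9 and 20.3 normalised reads in the vector and reached 500.0, 443 and 503, a difference of 2.63 ± 0.13. The H4 gene H4C5 moved from 5.46, 7.44 and 5.54 to 708, 528 and 476 normalised reads (3.35 ± 0.16). The H2B genes H2BC18 (3.15 ± 0.19), H2BC11 (2.91 ± 0.13) and H2BC5 (2.7 ± 0.09) and the linker histone gene H1-4 (2.71 ± 0.12) were also among the 15 largest increases of protein-coding genes, and in each the groups were fully apart.

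Of the 56 replication-dependent histone genes in the table, 34 were read well enough to be tested; 32 rose, none fell, and H2BC15 (-0.08 ± 0.09) and H3C6 (-0.04 ± 0.10) were not called. Their median difference was 1.55, beside 0.00 for all tested genes, and 32 rose under every alternative setting that kept all 34, with a median of 3.40 in voom, a scale that is not variance-stabilised. A gene read only with the treatments could pass the filter on low values through those libraries, so the tested genes are not all members and their count is a description. Methionase alone and Vps34-IN1 alone each gave 30 called higher and none lower in the same list. Over all tested genes, methionase alone gave 39.2% called, 18.1% higher and 21.1% lower, and Vps34-IN1 alone 40.1%, 20.2% higher and 19.9% lower. Together these genes took 0.0171%, 0.0158% and 0.0161% of the reads of the vector libraries and 0.175%, 0.174% and 0.159% with both treatments. This is 0.0163% ± 0.0007 against 0.169% ± 0.009 (SD, n = 3; exact two-sided permutation p = 0.10, the smallest that 3 against 3 allows), and methionase alone and the drug alone held 0.0812% and 0.0776%. H2BU1, an H2B gene outside the replication-dependent list that was chosen after its values were seen, moved from 13.7, 11.2 and 9.23 to 2016, 1074 and 777 normalised reads (4.15 ± 0.23). Histone genes are near copies of each other, so the split of reads among them is uncertain, and whether more polyadenylated histone mRNA or more histone mRNA in all was read cannot be told apart in a poly-A library.

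Promoters of replication-dependent histone genes are known for a small set of shared elements, and those of 2 H2B genes described above are shown, 1 with TATAAA and 1 without. The stretches come from RefSeq on GRCh38.p14, run 5′ to 3′ in the direction of the gene up to the base before its annotated start, and capitals mark the octamer ATTTGCAT, CCAAT boxes (ATTGG where the box is on the opposite strand) and TATAAA.
H2BC21: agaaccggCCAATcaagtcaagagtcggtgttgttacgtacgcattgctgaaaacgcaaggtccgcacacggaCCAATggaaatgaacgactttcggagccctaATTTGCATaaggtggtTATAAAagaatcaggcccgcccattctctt
H2BC4: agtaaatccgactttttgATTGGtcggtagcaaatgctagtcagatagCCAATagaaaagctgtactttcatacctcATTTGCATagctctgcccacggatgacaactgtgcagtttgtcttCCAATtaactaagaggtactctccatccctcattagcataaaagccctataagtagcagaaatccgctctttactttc
The H2BC21 stretch is chr1:149886683-149886832 and the H2BC4 stretch is chr6:26123927-26124126, both on the minus strand. In H2BC21 the octamer lies 46 to 39 bases before the start and TATAAA 30 to 25 bases before it. H2BC4 has the octamer 123 to 116 bases before the start and no TATAAA. Within 250 bases before the start and on either strand, the octamer was found in 14 of 33 histone promoters (42.4%), in 1.41% of the 11069 promoters of tested protein-coding genes, and in 3.45% of the 58 promoters of other genes that rose by at least 1. TATAAA was found in 63.6%, 5.38% and 22.4% of the same promoters and CCAAT in 87.9%, 34.9% and 44.8%. A match only says that the letters are there.

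Immediate early genes, which code mostly for transcription factors and are switched on within minutes of a signal, formed the second group of large increases. NR4A2, an orphan nuclear receptor, held 81.0, 90.2 and 80.3 normalised reads in the vector libraries and 1231, 1991 and 1924 with both treatments, a log2 difference of 3.47 ± 0.16 (adjusted p = 6.34e-14). Its relative NR4A1 went from 519.9, 487 and 459.6 to 3275, 6525 and 5649 normalised reads (3.14 ± 0.16). The AP-1 subunit FOS went from 108, 113 and 98.8 to 1343, 1284 and 732 (2.67 ± 0.22). In all 3 genes the lowest library with both treatments lay far above the highest vector library, although the treated libraries also differed among themselves. ATF3, a stress-induced repressor of the ATF family, moved from 2744, 2833 and 2023 to 12507, 25452 and 26039 normalised reads (2.97 ± 0.22), and JUN, the partner of FOS, from 6627, 7269 and 5358 to 30087, 30939.5 and 28263 (2.21 ± 0.14). ID3, an inhibitor of basic helix-loop-helix factors, moved from 378, 338 and 399 to 2136, 2876 and 3416 (2.65 ± 0.15).

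Of 26 tested genes of the immediate early list, 14 rose and 7 fell, with a median of 0.45. FOSB (1.89 ± 0.15), JUND (1.57 ± 0.14), NR4A3 (1.58 ± 0.15), JUNB (1.19 ± 0.12) and IER2 (1.13 ± 0.06) were among those that rose. The list did not move as one. EGR1, a zinc-finger factor that is often induced together with FOS, fell from 228, 267 and 208 to 43.8, 58.3 and 35.9 normalised reads (-1.43 ± 0.12), below every vector library. KLF10 (-0.92 ± 0.13), a TGF-beta-induced repressor, and IER5 (-0.35 ± 0.07) also fell. BHLHE40, a repressor of the clock and hypoxia circuits, fell by 0.50 as deposited, a value that moved by more than 1.5 times among the alternatives while the call remained.

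Genes that restrain or carry signals to the cytoskeleton were divided. DUSP1, the phosphatase that switches off JNK and p38, went from 633, 689 and 501 to 2768, 5093 and 5571 normalised reads (2.67 ± 0.18). DUSP16 (0.61 ± 0.09) and DUSP5 (0.42 ± 0.09), phosphatases of the same family, rose less, and SPRED1 (-0.59 ± 0.09), an inhibitor of RAS signalling, fell. Of the 14 tested feedback genes 3 rose and 3 fell (4 and 1 with equal library medians, 3 and 5 in voom, 3 and 1 without vector replicate 2, 5 and 1 without replicate 1 of the treated group). That is 42.9% called, near the 48.1% of all tested genes. RHOB, a small GTPase of endosomes, held 4596, 4809 and 3779.6 normalised reads in the vector and 17826, 24628 and 26184 with both treatments (2.35 ± 0.13). CCN1, a matricellular protein gene and YAP target, went from 245, 217 and 189 to 795, 1208 and 2149 normalised reads (2.20 ± 0.19). Its relative CCN2 rose by 0.47, a call lost without replicate 3 of the treated group. The YAP targets FJX1 (-0.91 ± 0.10), AJUBA (-0.59 ± 0.09) and CRIM1 (-0.50 ± 0.07) fell. Of 21 tested YAP and SRF targets 6 rose and 8 fell, a balance that turned with the setting (7 and 6 with equal library medians, 3 and 8 in voom, 5 and 5 without vector replicate 1 or 2, 8 and 7 without replicate 1 of the treated group). Replicate 1 of the group with both treatments was its lowest library for ATF3, DUSP1, RHOB, NR4A1 and CCN1 as well as for HSPA5 and DDIT3 below.

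**Figure D2:**
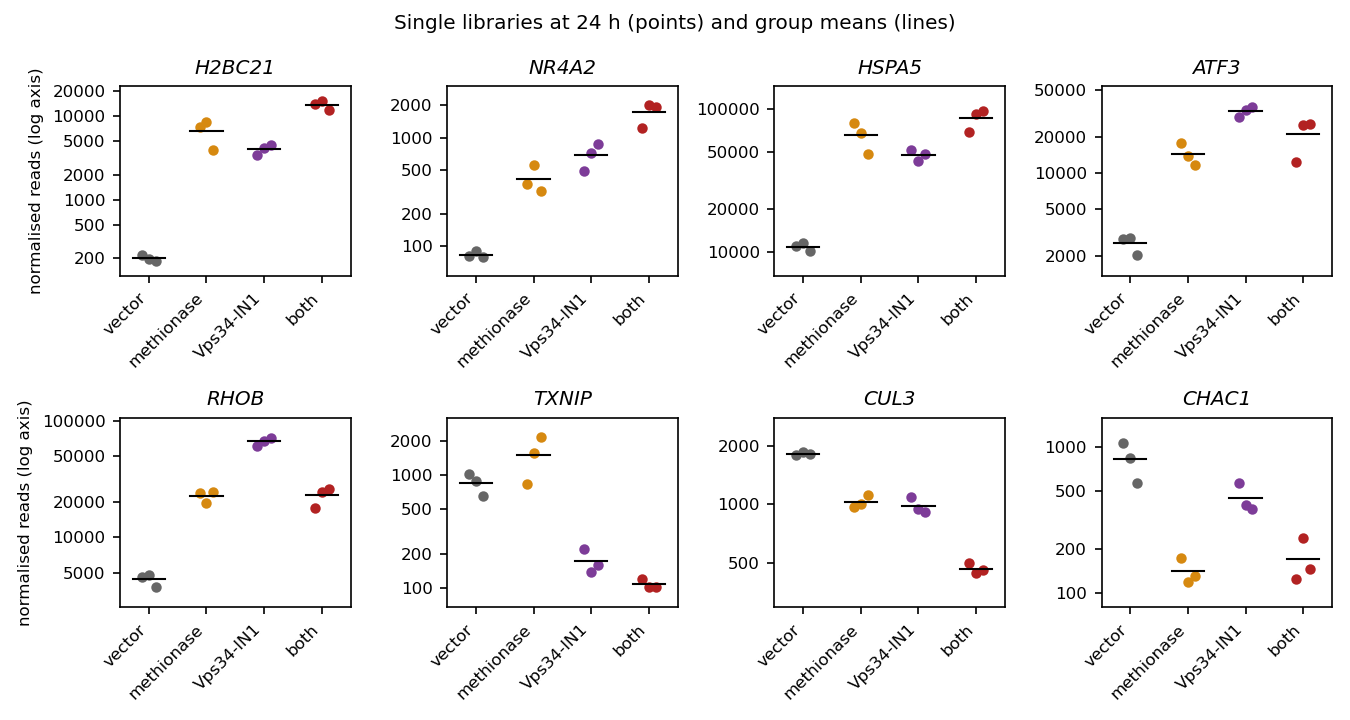
Normalised reads (log axis) of 8 genes in single libraries (points) with group means (lines), for the vector, methionase alone, Vps34-IN1 alone and both treatments at 24 h. H2BC21, NR4A2 and HSPA5 are highest with both treatments, RHOB and ATF3 are highest with Vps34-IN1 alone, CUL3 is lowest with both, and TXNIP is high in both DMSO groups.

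Genes of the endoplasmic reticulum (ER) split by role. HSPA5, the ER chaperone BiP, held 10986, 11561 and 10255 normalised reads in the vector libraries and 68482, 92494 and 95948 with both treatments. The groups lay far apart and the difference was 2.95 ± 0.13 (adjusted p = 1.83e-14), the widest of the list. The calcium-binding chaperone CALR rose by 0.54 (0.32 after quantile normalization) and the J-domain co-chaperone DNAJB9 by 0.54 ± 0.09. Of 19 ER chaperones and folding enzymes 9 rose and 1 fell (9 and 3 after quantile normalization, 7 and 2 in voom), with a median of 0.14. That is 52.6% called, near the 48.1% of all tested genes, and the one that fell was the oxidase ERO1A (-0.37 ± 0.07). Genes that sense misfolding or remove misfolded proteins went the other way more often: of 22, 3 rose and 13 fell, with a median of -0.24. HERPUD1, a membrane protein of the degradation complex, rose from 2018, 1931 and 1683 to 3701, 6171 and 6094 normalised reads (1.43 ± 0.13). SEL1L (-0.83 ± 0.07), the partner of the ubiquitin ligase HRD1, DERL1 (-0.59 ± 0.06), a channel component, VCP (-0.44 ± 0.06), the ATPase that extracts the proteins, and EIF2AK3 (-0.52 ± 0.09), the sensor kinase PERK, fell.

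The HSPA5 promoter is shown for its ER stress response elements, the sites at which ATF6 is known to act. Capitals mark CCAAT and the full element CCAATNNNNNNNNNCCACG, which starts with its own CCAAT.
HSPA5: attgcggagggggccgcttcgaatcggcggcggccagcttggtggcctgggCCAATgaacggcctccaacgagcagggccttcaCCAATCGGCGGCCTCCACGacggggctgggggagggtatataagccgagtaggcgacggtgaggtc
This is chr9:125241344-125241493, minus strand, and the full element lies 66 to 48 bases before the start, with a further CCAAT 99 to 95 bases before it. The full element was found on either strand in 6 of 18 promoters of the ER chaperone list (33.3%) and in 14 of 11069 promoters of tested protein-coding genes (0.126%).

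In the integrated stress response, the genes acting after ATF4 did not share a direction. ATF4, its central transcription factor, was not called, with 28848, 28415 and 29001 normalised reads against 27972, 34103 and 33262, a difference of 0.14 ± 0.08 (adjusted p = 0.184, 95% interval -0.04 to 0.31). Both the call and the direction of ATF4 depended on the setting: it was called lower after quantile normalization (-0.21, adjusted p = 0.0225) and higher with equal library medians (0.21, adjusted p = 0.0486) or without replicate 1 of the treated group (0.23, adjusted p = 0.0353). PPP1R15A, or GADD34, which recruits the phosphatase that reverses eIF2 alpha phosphorylation, rose from 769, 802 and 730.1 to 2087, 3312 and 3688 normalised reads (1.83 ± 0.13). Its constitutive relative PPP1R15B rose by 0.98 ± 0.13, and DDIT3, the factor CHOP, went from 579, 525 and 359 to 863, 1581 and 1809 (1.36 ± 0.20). CHAC1, a glutathione-degrading enzyme and ATF4 target, fell from 1059, 842 and 567 to 125, 238 and 146 normalised reads (-1.86 ± 0.20), with every treated library below every vector library. The pseudokinase TRIB3 (-0.98 ± 0.15), the receptor VLDLR (-0.95 ± 0.09) and the factor ATF5 (-0.67 ± 0.10) fell too. Of 23 tested regulators and targets 4 rose and 11 fell, with a median of -0.13.

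DUSP1 and PPP1R15A are shown as a pair of induced genes from different groups above that share a cAMP response element, TGACGTCA, and, at the same distance from the start, TATAAA. Capitals mark these and, in DUSP1, the E-box CACGTG.
DUSP1: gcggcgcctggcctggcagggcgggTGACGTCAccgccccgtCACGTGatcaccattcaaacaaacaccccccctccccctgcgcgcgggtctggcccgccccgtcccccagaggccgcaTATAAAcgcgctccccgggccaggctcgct
PPP1R15A: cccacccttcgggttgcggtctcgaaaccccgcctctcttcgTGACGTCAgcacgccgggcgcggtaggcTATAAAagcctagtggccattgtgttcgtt
The DUSP1 stretch is chr5:172771196-172771345 on the minus strand and the PPP1R15A stretch is chr19:48872321-48872420 on the plus strand. TATAAA lies 30 to 25 bases before the start in both, and the cAMP response element 125 to 118 bases before it in DUSP1 and 58 to 51 in PPP1R15A. TGACGTCA was found in 4 of the 58 promoters of non-histone genes that rose by at least 1 (6.9%) and in 2.87% of all tested protein-coding promoters, with each palindrome counted once per promoter. The AP-1 site TGANTCA was found in 5.17% and 3.7%.

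Most amino acid transporter genes fell, and the enzymes of methionine use were mixed. Of 17 tested transporters 2 rose and 12 fell (4 and 12 after quantile normalization), with a median of -0.52. The glutamine carriers SLC38A2, with 6441, 6249 and 5572 against 2642, 2697 and 3245 normalised reads (-1.07 ± 0.09), and SLC38A1 (-0.99 ± 0.07), the cystine carrier SLC7A11 (-0.86 ± 0.12), the glycine carrier SLC6A9 (-0.83 ± 0.08) and the lysosomal arginine sensor SLC38A9 (-0.76 ± 0.07) all fell. Asparagine synthetase ASNS rose (0.97 ± 0.14), from 236, 173 and 169 to 321, 495 and 561 normalised reads, whereas the serine pathway genes PSPH (-0.69 ± 0.08) and PSAT1 (-0.58 ± 0.07) fell. Of 17 such synthesis genes 3 rose and 7 fell (2 and 10 in voom).

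MAT2A, the enzyme that makes S-adenosylmethionine, held 5167, 4844 and 6405 normalised reads in the vector and 4257, 3283 and 3691 with both treatments. The difference was -0.53 ± 0.17 (adjusted p = 0.0124) and the groups did not overlap, but the call was lost without vector replicate 3 (adjusted p = 0.0723) or replicate 2 of the treated group (0.0652). Its regulatory partner MAT2B (-0.48 ± 0.07) and methionine synthase MTR (-0.53 ± 0.07) with its reductase MTRR (-0.52 ± 0.06), which remake methionine from homocysteine, fell. ENOPH1 (0.35 ± 0.07) and MRI1 (0.25 ± 0.06) of the salvage pathway rose, and 4 of 15 tested genes rose and 6 fell (2 and 7 in voom). In polyamine metabolism SAT1, which acetylates spermidine and spermine for export, rose from 1215, 1352 and 1314 to 4391, 5374 and 6930.1 normalised reads (2.01 ± 0.14). AMD1, which commits S-adenosylmethionine to polyamine synthesis, fell from 3754, 3888 and 3733 to 1847, 1862 and 2009 (-0.96 ± 0.07). In this list 5 of 17 rose and 5 fell (6 and 3 with equal library medians, 3 and 5 in voom, 3 and 4 without vector replicate 3, 3 and 5 without replicate 2 of the treated group).

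Genes of the enzymes that use methyl groups or remove them moved in both directions. The histone lysine lists were called about as often as all tested genes (48.1%). Of 31 histone lysine methyltransferase genes 6 rose and 9 fell, 48.4% in all (9 and 6 with equal library medians). Of 22 demethylase genes 4 rose and 8 fell, 54.5% in all (5 and 6 with equal library medians, 1 and 12 in voom, 1 and 6 without vector replicate 1, 2 and 9 without vector replicate 3, 1 and 9 without replicate 1 of the treated group). The H3K27 methyltransferase genes EZH1 (0.78 ± 0.12) and EZH2 (0.41 ± 0.06) and NSD3 (0.67 ± 0.07) rose, and SETD7, a lysine methyltransferase of histone H3 and of other proteins, fell from 2449, 2601 and 2206 to 1217, 1029.5 and 1225 normalised reads (-1.01 ± 0.07). SETD1B (-0.42 ± 0.07) and SUV39H2 (-0.51 ± 0.08) fell less. The H3K9 demethylase KDM3A (-0.73 ± 0.06) fell and the H3K27 demethylase KDM6B (0.44 ± 0.08) rose. Of 16 DNA methylation and TET genes 5 rose and 5 fell, 62.5% in all (6 and 5 with equal library medians, 2 and 6 in voom). TET1, which oxidises methylcytosine, rose (0.68 ± 0.09), while the repair glycosylase TDG (-0.71 ± 0.07), which acts after it, and the maintenance factor UHRF1 (-0.39 ± 0.06) fell. Among 30 chromatin remodeller genes 4 rose and 14 fell (6 and 12 with equal library medians).

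**Figure D3:**
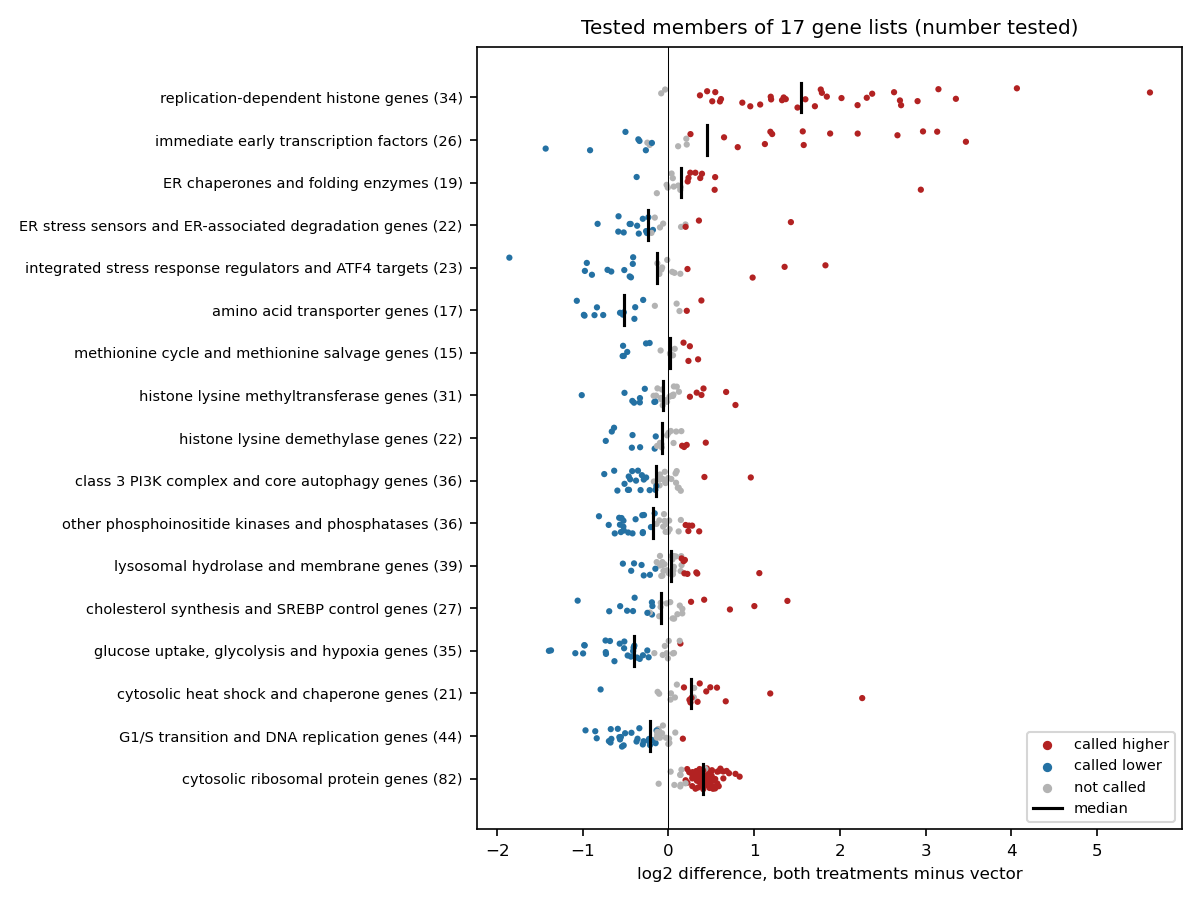
Log2 differences, both treatments minus vector, of the tested members of 17 gene lists, coloured by call, with the number tested in brackets and the median of each list as a black bar. The histone list lies furthest to the right with a median of 1.55, and the amino acid transporter and glycolysis lists have the lowest medians, -0.52 and -0.41.

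Genes of the VPS34 complex were among the lower ones. PIK3C3, which encodes VPS34, fell from 658, 703 and 690.4 to 437, 430.1 and 408 normalised reads (-0.60 ± 0.06, adjusted p = 3.28e-08), and every treated library lay below every vector library. PIK3R4, its regulatory subunit VPS15, fell by more (-0.75 ± 0.06). Of 36 genes of the complex and of core autophagy 2 rose and 18 fell (5 and 15 with equal library medians or quantile normalization), with a median of -0.15. That is 55.6% called, near the 48.1% of all tested genes. ULK2 (-0.63 ± 0.08), a kinase that starts autophagy, and WIPI2 (-0.45 ± 0.07), which reads phosphatidylinositol 3-phosphate, fell. The ones that rose were GABARAPL1, an ATG8 protein of the autophagosome membrane, from 1447, 1483 and 1451 to 2119, 3189 and 3688 normalised reads (0.96 ± 0.12), and UVRAG (0.42 ± 0.07), a VPS34 partner at endosomes. Of 36 genes for other phosphoinositide kinases and phosphatases 5 rose and 19 fell (2 and 23 in voom), with PIP5K1C (-0.81 ± 0.09) and MTMR12 (-0.70 ± 0.07) among the lower. VPS18, a core subunit of the endosome and lysosome tethers HOPS and CORVET, was among the 15 largest decreases, from 464, 485 and 477 to 97.2, 118 and 126 normalised reads (-1.56 ± 0.10), as was HPS6 (-1.41 ± 0.09), part of the BLOC-2 complex that sorts cargo to lysosome-related organelles.

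Lysosomal genes did not share a direction. Of 39 genes of hydrolases and membrane proteins 8 rose and 7 fell, or 38.5% called beside 48.1% of all tested genes (12 and 6 with equal library medians, 3 and 12 in voom, 4 and 6 without vector replicate 2), and the alpha-galactosidase gene GLA stood out from 4773, 4801 and 5222 to 8355, 11215 and 11905 normalised reads (1.06 ± 0.09). Of 17 subunit genes of the proton pump V-ATPase 1 rose and 8 fell, 52.9% in all (2 and 7 with equal library medians), with ATP6V1B2 lowest (-0.96 ± 0.07). Among 15 genes of the TFEB family and of the machinery that reports amino acids to mTORC1, 2 rose and 8 fell (4 and 6 with equal library medians). The Rag GTPases RRAGC (-0.89 ± 0.07) and RRAGA (-0.68 ± 0.06), FNIP2 (-0.81 ± 0.08) and folliculin, FLCN (-0.47 ± 0.07), fell, and the transcription factor TFE3 (0.39 ± 0.07) rose. The mitophagy receptors BNIP3 (-0.89 ± 0.13) and BNIP3L (-0.83 ± 0.09) fell.

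Sterol genes also moved in both directions, with 5 of 27 higher and 10 lower (8 and 6 with equal library medians). That is 55.6% called, near the 48.1% of all tested genes. IDI1, an isoprenoid enzyme, went from 3063, 3285 and 3241 to 7492, 9548 and 8593 normalised reads (1.39 ± 0.09). INSIG1, which holds SREBP in the ER, rose by 1.0 ± 0.10 and the synthesis genes MSMO1 (0.72 ± 0.06) and HMGCS1 (0.42 ± 0.11) by less. INSIG2, the relative of INSIG1, fell from 523, 583 and 528 to 241, 208 and 213 normalised reads (-1.06 ± 0.09), and the cyclase gene LSS (-0.69 ± 0.08) and SREBF1 (-0.56 ± 0.07), which encodes SREBP1, fell.

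Genes of glucose uptake, glycolysis and the hypoxia response were lower in most cases. Of 35 tested, 25 fell and 1, PFKM, rose, a call lost under other settings, and the median was -0.41. The glucose transporter SLC2A1 went from 1227, 1411 and 1377 to 591, 699.5 and 619 normalised reads (-0.98 ± 0.09) and its relative SLC2A3 from 750.2, 826 and 718 to 184, 279 and 288 (-1.37 ± 0.15). The oxygen-sensing prolyl hydroxylases EGLN3 (-1.40 ± 0.13) and EGLN1 (-1.0 ± 0.07), the pyruvate dehydrogenase kinase PDK3 (-0.98 ± 0.08) and HIF1A (-0.73 ± 0.06), the hypoxia factor itself, all fell, with the groups apart in each. PPARA, the fatty acid sensing receptor of the fasting response, fell from 607, 614 and 517 to 287, 252 and 252 normalised reads (-0.94 ± 0.08), as did its partner RXRA (-0.83 ± 0.08). Of 31 fasting genes 3 rose and 13 fell, or 51.6% called beside 48.1% of all tested genes.

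The largest decrease of a protein-coding gene was that of TXNIP, which binds thioredoxin and lowers glucose uptake. It held 1035, 889.9 and 662 normalised reads in the vector libraries and 121, 101 and 102 with both treatments. The treated libraries were all low and close together, and the difference was -2.34 ± 0.21 (adjusted p = 4.74e-09). ARRDC4, a related alpha-arrestin that is known to share its glucose-responsive factor MondoA, fell from 1246, 1245 and 993 to 261, 285 and 219 normalised reads (-1.89 ± 0.11), and ARRDC2 by less (-0.71 ± 0.09). ARRDC3, of the same family, rose from 109, 121 and 86.8 to 268, 433 and 639.9 (1.48 ± 0.16). The ARRDC4 promoter is shown because MondoA works through paired E-boxes, and capitals mark CACGTG and CCAAT boxes (ATTGG on the opposite strand).
ARRDC4: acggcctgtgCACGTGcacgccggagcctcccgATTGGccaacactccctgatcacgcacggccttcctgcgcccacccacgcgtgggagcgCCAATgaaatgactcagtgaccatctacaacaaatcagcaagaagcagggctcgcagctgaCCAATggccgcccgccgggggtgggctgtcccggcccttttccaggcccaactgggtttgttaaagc
This is chr15:97960483-97960702, plus strand, with CACGTG 210 to 205 bases before the start. It was the only CACGTG in the stretch, so a pair with these letters was not found there. CACGTG was found in 14.9% of the 87 promoters of genes that fell by at least 1, in 7.32% of the 82 that rose by at least 1 and in 8.75% of all tested protein-coding promoters.

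CUL3, the scaffold of the ubiquitin ligases that include the KEAP1 ligase of NRF2, had one of the tightest decreases, from 1786, 1864 and 1805 to 499, 444 and 459 normalised reads (-1.79 ± 0.07, adjusted p = 6.39e-16). Its gene spans chr2:224470150-224585363 on GRCh38. KEAP1 (-0.56 ± 0.07) fell as well. Of 20 genes of this ligase and of NRF2 targets 7 rose and 5 fell (10 and 4 with equal library medians, 5 and 5 in voom). The thioredoxin gene TXN (0.48 ± 0.07) and ferritin light chain FTL (0.40 ± 0.08) rose, and sulfiredoxin SRXN1 (-0.60 ± 0.07) fell. The glutathione peroxidases GPX1 (0.58 ± 0.08) and GPX4 (0.38 ± 0.06) rose and GCLC (-0.59 ± 0.07), the catalytic subunit for glutathione synthesis, fell.

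Other genes among the 15 largest decreases had various roles, and all were apart between the groups. Ceramide kinase CERK moved from 1945, 1837 and 1811 to 595, 609 and 528 normalised reads (-1.56 ± 0.08) and SLC16A13, of the monocarboxylate transporter family, from 392, 349 and 365 to 95.1, 72.6 and 68.4 (-1.56 ± 0.10). The RNA-binding protein gene RBM12 moved from 2430.1, 2639 and 2425 to 803, 870.0 and 778 (-1.52 ± 0.07). ZC3HAV1 (-1.50 ± 0.08), an antiviral RNA-binding protein, INTS5 (-1.49 ± 0.09), a subunit of the Integrator complex, the nuclear receptor coactivator NCOA5 (-1.42 ± 0.09) and the death receptor adaptor FADD (-1.41 ± 0.09) fell by similar amounts.

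Cell cycle genes leaned lower in the G1/S group. Of 44 tested genes for entry into S phase and for replication, 26 fell and 1, RFC5, rose, a call lost under other settings, with a median of -0.22. Cyclin D1, CCND1, went from 467, 451 and 402 to 216, 185 and 164 normalised reads (-0.97 ± 0.09), the transcription factor E2F2 fell by 0.84, the origin licensing factor CDC6 by 0.70, the polymerase clamp PCNA by 0.68 and BRCA1 by 0.67, each with a standard error of 0.06 to 0.09. Of 30 G2/M and mitosis genes 5 rose and 11 fell (6 and 8 with equal library medians, 2 and 16 in voom), or 53.3% called beside 48.1% of all tested genes. The mitotic motor KIF11 (-0.55 ± 0.06) and cyclin B1, CCNB1 (-0.38 ± 0.06), fell, and CDC20 (0.39 ± 0.07) and UBE2C (0.33 ± 0.07), which drive mitotic exit, rose. Growth arrest genes were split, 6 of 18 in each direction as deposited and 8 higher and 6 lower with equal library medians: BTG1 rose from 1876, 1888 and 1752 to 4449, 4834 and 4568 normalised reads (1.29 ± 0.09) and GADD45A by 1.07 ± 0.13, while CDKN1A, which encodes p21, fell (-0.78 ± 0.08). PMAIP1, the pro-apoptotic BH3-only protein NOXA, rose from 4425, 4459 and 3859 to 7238, 11021 and 14183 normalised reads (1.28 ± 0.14), and BMF (-1.22 ± 0.09) and HRK (-1.01 ± 0.09), of the same class, and BCL2 (-0.51 ± 0.10) fell.

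Cytosolic heat shock genes leaned higher, 12 of 21 against 1 lower (9 and 3 in voom), with a median of 0.27. HSPA1B, an inducible HSP70 gene, went from 51.0, 44.6 and 64.6 to 943, 453 and 308 normalised reads (2.26 ± 0.21), with replicate 1 highest. It is nearly identical to HSPA1A, so its own count is uncertain. Its co-chaperone DNAJB1 had 1755, 1848 and 1939 against 14647, 3159 and 1697 normalised reads, so 1 treated library lay below the vector libraries. The difference of DNAJB1 was 1.19 ± 0.39 (adjusted p = 0.0145), and without replicate 1 of the treated group it was 0.32 and not called (adjusted p = 0.154). DNAJA1, another co-chaperone of the same kind, fell (-0.79 ± 0.07), and CHORDC1 (0.67 ± 0.08), an HSP90 co-chaperone, rose.

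Among genes of the translation machinery, ribosomal protein genes were higher by small amounts. Of 20 tested cytosolic aminoacyl-tRNA synthetase genes 1 rose and 6 fell, with a median of -0.12. These counts became 1 and 12 after quantile normalization, 1 and 16 in voom and 2 and 3 with equal library medians. For the cytosolic ribosome, 71 of 82 protein genes were called higher and 0 lower, with a median of 0.40. After quantile normalization 29 rose and 4 fell with a median of 0.16, so the size of this difference rests on the scaling. RPL26 had a difference of 0.61 ± 0.08 as deposited and 0.30 after quantile normalization. Short genes of this kind have many processed copies in the genome, which makes their counts uncertain.

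Small nucleolar RNAs, which guide chemical modification of ribosomal RNA and are mostly cut from introns, were higher almost throughout. Of 161 tested, 150 rose (93.2%) and 1 fell, with a median of 0.95, and 146 to 154 rose under the alternatives that tested all of them (median 2.55 in voom). As with the histone genes, low ones could pass the filter through the treated libraries. Box C/D genes, which guide methylation, had 93 of 99 higher with a median of 0.95, and box H/ACA genes, which guide pseudouridylation, 50 of 52 with a median of 1.12. The examples that follow were chosen after their values were seen. SNORD74 went from 12.7, 11.2 and 23.1 to 384, 352 and 351 normalised reads (2.51 ± 0.13) and SNORD80 from 120.2, 126 and 151 to 681, 714 and 728 (1.91 ± 0.12), both from introns of the host gene GAS5, which itself went from 5142, 5778 and 4582 to 10872, 11452 and 13948 (1.21 ± 0.09). The host gene SNHG1 rose by 1.55 ± 0.11. A read from an unspliced host transcript can be counted for the small RNA inside it, and these were not told apart. In poly-A libraries such reads need not follow the amount of the mature small RNA, which was not tested. Methionase alone gave 137 higher and Vps34-IN1 alone 56.

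Long non-coding RNAs leaned higher, with 690 of 2604 up (26.5%) and 246 down (9.4%), 1038 and 163 with equal library medians and 523 and 380 after quantile normalization. The single long non-coding genes named next were chosen after their values were seen. NEAT1, the scaffold of nuclear paraspeckles, went from 33.7, 19.5 and 108 to 447, 272 and 326 normalised reads (1.86 ± 0.27). MALAT1, of nuclear speckles, went from 18.2, 13 and 20.3 to 173, 112 and 192 (1.54 ± 0.15). MIR210HG, the host of a hypoxia-induced microRNA, fell from 114, 121 and 124 to 22.4, 13.2 and 11.2 (-1.33 ± 0.14). Of 13537 tested protein-coding genes 2741 were higher (20.2%) and 4183 lower (30.9%), which became 3922 and 3226 with equal library medians. The 95 protein-coding genes that rose by at least 1 were short, with a median span of 5.28 kb beside 32.2 kb for all tested and 18.8 kb for the 109 that fell by at least 1. Of those with an exon number, 33.7% had a single exon, beside 3.48% of all tested and 9.35% of those that fell by at least 1; the histone genes are part of this.

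Mitochondrial RNAs differed along the genome. The ribosomal RNAs RNR1 and RNR2 took 0.507%, 0.480% and 0.657% of all reads in the vector libraries and 2.47%, 1.89% and 2.17% with both treatments, 0.548% ± 0.0956 against 2.18% ± 0.288 (SD, n = 3; exact two-sided permutation p = 0.10, the smallest possible). The log2 difference was 1.78 ± 0.15 for RNR1 and 2.14 ± 0.20 for RNR2, the latter 1.12 after quantile normalization. The 13 mitochondrial mRNAs together took 2.91% ± 0.873 and 4.06% ± 0.272 of the reads, which overlapped between the groups (exact permutation p = 0.20). Of single mRNAs, COX1 (1.01 ± 0.24), COX2 (0.89 ± 0.22), ND4L (1.18 ± 0.26) and ND4 (0.98 ± 0.25) were called higher, though COX1 and COX2 lost their calls after quantile normalization (adjusted p = 0.540 and 0.0543). ND1 (-1.18 ± 0.29) and ND2 (-1.08 ± 0.28), the complex I genes next to the ribosomal RNAs, fell. Of 10 tested mitochondrial tRNAs 8 fell, TRNP rose (0.68 ± 0.17) and TRNM was not called (-0.20 ± 0.11). Nuclear copies of mitochondrial genes make such counts uncertain, as does the low poly-A content of the ribosomal RNAs and tRNAs.

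**Figure D4:**
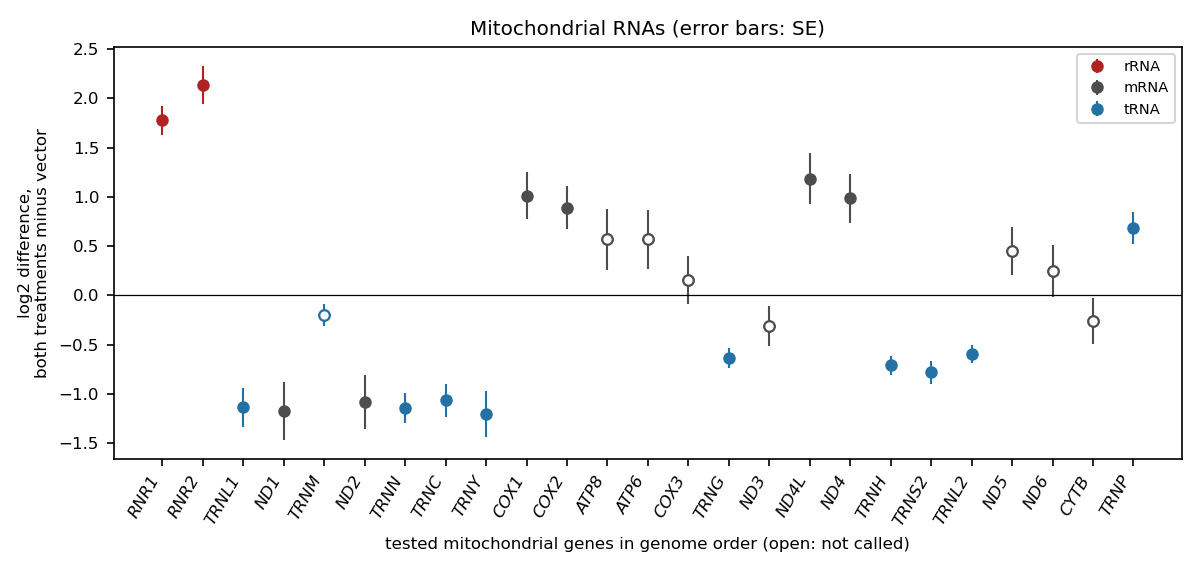
Log2 difference, both treatments minus vector, of the tested mitochondrial genes in genome order, with standard errors; filled points are called and open points are not. The ribosomal RNAs RNR1 and RNR2 lie at 1.78 and 2.14, while ND1, ND2 and most tRNAs lie below 0.

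Set beside methionase alone, the addition of the drug was called for few genes. Both treatments minus methionase alone gave 1408 of 17755 genes (7.93%), 523 higher (2.95%) and 885 lower (4.98%), with 17 higher (0.0957%) and 3 lower (0.0169%) by at least 1. This count fell to 296 when only those 2 groups were fitted and to 625 with array quality weights. NR4A2 held 372, 556 and 325 normalised reads with methionase alone, below all 3 libraries with both treatments, a difference of 1.84 ± 0.16. NR4A1 (1.37 ± 0.16), H4C5 (1.75 ± 0.16), H2BC18 (1.30 ± 0.19), H1-2 (1.24 ± 0.12) and H3C4 (1.21 ± 0.16) were also higher with both. TXNIP was the widest difference in the other direction: methionase alone left it at 844, 1576 and 2175 normalised reads, above every vector library in 2 of 3, and the difference of both treatments from methionase alone was -3.04 ± 0.21. ARRDC4 (-1.40 ± 0.11), CUL3 (-1.01 ± 0.07) and BMF (-0.92 ± 0.09) followed. Of the 34 histone genes 28 were higher than with methionase alone and none lower.

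Set beside Vps34-IN1 alone, the addition of methionase was called for 7016 genes (39.5%), 3079 higher (17.3%) and 3937 lower (22.2%), with 88 (0.496%) and 25 (0.141%) by at least 1. H4C5 (2.10 ± 0.16), H2BC18 (2.05 ± 0.19) and H2BC21 (1.74 ± 0.16) were the widest increases of genes typed as protein-coding (H2BU1, without a type in the annotation used, had 2.25), and 26 of 34 histone genes were higher and 1 lower. RHOB, with 61148, 66973 and 70919.8 normalised reads under the drug alone, was lower with both (-1.55 ± 0.13), as were TRIB1 (-1.95 ± 0.10), a pseudokinase, EIF2AK3 (-1.36 ± 0.09), KLF6 (-1.28 ± 0.12), a zinc-finger factor, RNF145 (-1.28 ± 0.08), a ubiquitin ligase of sterol control, and CCN1 (-1.17 ± 0.19). TRIB1 differed here and not in the net comparison: it had 692, 772 and 695 normalised reads in the vector, 2827, 3341 and 3364 with the drug alone and 627, 769.9 and 901 with both, and its net difference was 0.07 ± 0.10 (not called, 95% interval -0.14 to 0.28). Several lists were mostly lower than with the drug alone: 18 of 27 sterol genes were lower with both than with the drug alone and none higher, 19 of 22 ER sensing and degradation genes were lower and none higher, and 23 of 36 complex and autophagy genes were lower and 1 higher.

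The methionase difference under the drug was compared with the methionase difference in DMSO, which also asks whether the combination departs from the sum of the single log2 differences. It departed for 3878 genes (21.8%), 1761 above the sum (9.92%) and 2117 below (11.9%), and in voom for 3895, 2442 above and 1453 below. By at least 1, 20 lay above (0.113%) and 74 below (0.417%), a balance that turned in voom, with 504 above and 272 below. The 6 protein-coding genes furthest below the sum had risen with each treatment alone. H2BC21 rose by 4.52 with methionase and 3.88 with the drug, and both gave 5.62, which is -2.78 ± 0.23 from the sum. RHOB, with 2.35 and 3.89, reached 2.35 (-3.90 ± 0.19), and CCN1 (-3.87 ± 0.27), ATF3 (-3.19 ± 0.31), JUN (-3.08 ± 0.20) and KLF6 (-2.53 ± 0.17) also lay below theirs. Among those furthest above the sum, SLC2A3 had -1.38 and -1.40 alone and -1.37 with both (1.41 ± 0.21), and RBM12 (1.33 ± 0.09) and NCOA5 (1.21 ± 0.12) also lay above theirs after falling with each treatment alone. CUL3 was not called in this test, with -0.78 and -0.84 alone and -1.79 together (-0.18 ± 0.09, adjusted p = 0.177, 95% interval -0.37 to 0.01). Among the lists, 16 of 26 immediate early genes lay below the sum and 1 above, 12 of 19 ER chaperones below and none above, 10 of 34 histone genes below and none above, and 7 of 17 transporters and 11 of 35 glycolysis and hypoxia genes above, with 0 and 2 below. These list counts were not repeated under the alternatives. The departure of some histone genes moved widely there: H2BC18 had 0.19 as deposited and -2.19 at its lowest, H4C5 0.49 and -1.11, and H1-4 -1.79 and -4.56. H2BC21 stayed between -3.13 and -2.57. All of these comparisons share libraries with the net comparison, so their values are set side by side and are not independent of it.

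**Figure D5:**
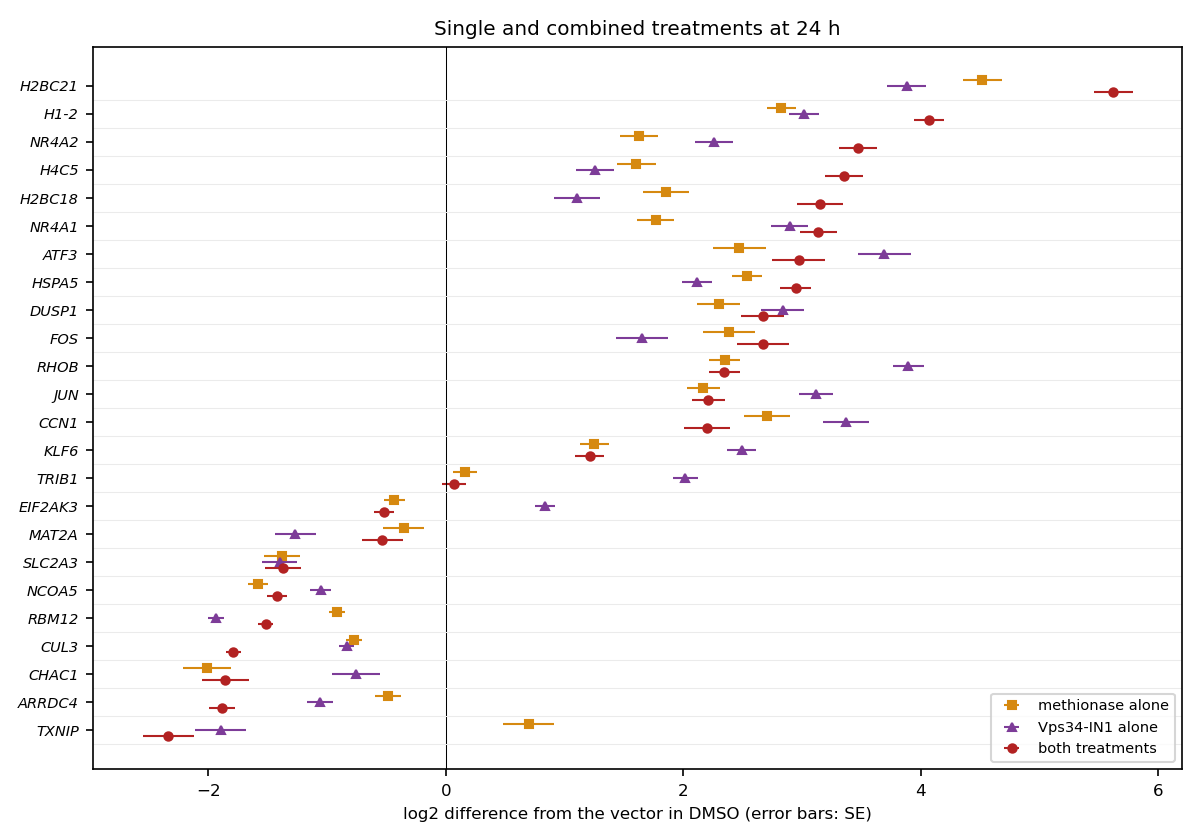
Log2 differences from the vector in DMSO, with standard errors, for methionase alone, Vps34-IN1 alone and both treatments in 24 genes. For RHOB, JUN and KLF6 both treatments lie close to methionase alone. For NR4A2, H4C5, CUL3 and ARRDC4 both treatments lie beyond either treatment alone.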

How the data were processed

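Poly-A RNA of the 18 libraries was read as strand-specific libraries, per the labels' protocols. The hg38 build, the aligner STAR 2.7.10b, featureCounts, limma and DESeq2 are named per the submitters' processing notes, without their roles. How the counting treated strand is not given in the sources used here, and overlapping genes on opposite strands may not be told apart. The single table deposited by the authors holds variance-stabilised log2 values, the lowest of them 5.45. It named 37096 genes, plus 1 line without a gene that took at most 0.00216% of a library's reads; 0 columns were unused. Symbols, types and positions came from RefSeq (GRCh38.p14), which matched 36162 genes.

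The transformation was undone, and 100% of the values gave whole reads within 0.01. Size factors were 0.892 to 1.10 in the 6 libraries. Replicates differed by a chi-square per gene of at least 2.52, so none was counted as a copy. Genes with a mean over all libraries at least 0.5 above the lowest value were tested (17755). A limma 3.58.1 model (R 4.3.3) was fitted to the log2 values as deposited, with 1 mean for each of 6 groups, all 18 libraries and a variance trend. Adjusted p-values are Benjamini-Hochberg values over all tested genes within a comparison, and intervals are 95% intervals. The procedure was tested on simulated data, where small changes were often missed and false calls were somewhat more frequent than the threshold sets. Far fewer genes changed there than were called here, so that share of false calls need not hold for these data. Shares of reads were compared by exact two-sided permutation over libraries, and they and all counts carry counting error beside the spread between libraries.

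The genes named were the 15 largest increases and decreases among called protein-coding genes whose groups did not overlap, the 6 largest in each direction of the other comparisons, up to 4 called genes per direction and list by lowest adjusted p, list extremes and 16 genes followed throughout. The single histone, small nucleolar and long non-coding genes said to be chosen after their values were seen, and immediate early and mitochondrial genes shown as list members, fell outside this rule. Some genes that the rule or the marker lists held are not reported here. The members and gene lists were chosen with earlier results of these data known. Alternatives were no filter, a filter at 1 (14322 genes), quantile normalization, equal library medians, no variance trend, array quality weights, only the groups compared, a replicate block, voom on the recovered reads and each library left out in turn.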

Additional observations from a re-analysis of the deposited data

Results flagged for a closer look

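In 11 genes the methionase difference under Vps34-IN1 differed from the methionase difference in DMSO by a test of that difference itself in limma, and these were among the protein-coding genes with the largest such values in each direction. Negative values, which mean that the joint change lay below the sum of the single ones, were -3.90 for RHOB, -3.87 for CCN1, -3.19 for ATF3, -3.08 for JUN, -2.78 for H2BC21 and -2.53 for KLF6, all on the log2 scale. Positive values were 1.41 for SLC2A3, 1.33 for RBM12, 1.32 for the mitochondrial cytochrome b gene CYTB, 1.21 for NCOA5 and 1.2 for EMILIN3, an extracellular matrix protein gene. CYTB was not called in the net comparison (-0.26 ± 0.23, adjusted p = 0.373, 95% interval -0.75 to 0.22), with 43181, 38793 and 60373 normalised reads in the vector libraries and 36199, 37540.1 and 43115 with both treatments.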

How the results depend on the processing

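The net comparison called 8544 genes and 7536 to 9165 under the other settings, 7332 to 8057 with 1 library left out. Both treatments minus methionase alone moved most: 1408 genes were called, 625 with array quality weights, 296 with only the groups compared and 860 to 1526 with 1 library left out, the lowest without methionase replicate 3. Both treatments minus Vps34-IN1 alone called 7016 (5738 to 6803 with 1 library left out), and the departure from the sum 3878 (3100 to 4447). The cause of these shifts was not tested. The histone share of reads was higher by 0.153 percentage points, or 0.168 over reads on nuclear protein-coding genes. With 1 library left out, the difference was 0.150 to 0.158 for histone genes, 1.48 to 1.77 for mitochondrial ribosomal RNA and 0.826 to 1.65 for mitochondrial mRNA. Of 342 genes called in the net comparison and followed through the alternatives, 296 kept their call in every setting, and none of the 342 changed sign. ATF4, not called as deposited (0.14), reversed to -0.2055 and was called lower after quantile normalization. The balance of calls over all genes also turned: 2741 protein-coding genes were higher and 4183 lower as deposited and 3922 and 3226 with equal library medians, and 1761 genes lay above and 2117 below the sum as deposited and 2442 and 1453 in voom.

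Replicate numbers did not pair the samples: the correlations of same-numbered libraries were 0.00213, 0.135 and 0.0232. With the replicate block 8477 net, 1387, 6951 and 3769 genes were called in the 4 comparisons, in the order above.

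Depth limits the genes under about 10 reads most, but variance-stabilised differences are compressed well above that level too. MIR210HG went from a mean of 119 to 15.6 normalised reads with a difference of -1.33. The median of the tested histone list was 1.55 as deposited and 3.40 in voom.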

Other observations

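Genes of the NF-kB and interferon response were more often lower than higher, with 9 of 21 tested lower and 3 higher. That is 57.1% called beside 48.1% of all tested genes. The inhibitor genes NFKBIA (-0.55 ± 0.10) and TNFAIP3 (-0.60 ± 0.08), the NF-kB subunit gene NFKB1 (-0.45 ± 0.07) and the interferon regulatory factor IRF1 (-0.71 ± 0.09) fell, while NFKBIB (0.53 ± 0.10), a further inhibitor, and the ubiquitin-like modifier ISG15 rose, the latter from 52.8, 40.0 and 48.9 to 102, 100.1 and 84.0 normalised reads (0.53 ± 0.10). AMH, which encodes anti-Müllerian hormone, rose from 399, 325 and 487 to 1229, 892 and 1062 normalised reads (1.24 ± 0.16); methionase alone gave 0.87 ± 0.16 and Vps34-IN1 alone -0.06 ± 0.16. DEPP1, a FOXO target, was not called in the net comparison (-0.15 ± 0.10, 95% interval -0.34 to 0.05), although methionase alone raised it by 0.63 ± 0.10 and both treatments lay below methionase alone (-0.78 ± 0.10).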
